A study of Homo sapiens with 6 samples.

Results

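The genes described here are the kinesin motors and the proteins of the centromere, kinetochore and spindle checkpoint, which were compared between PC-3 cells labelled tdTom and TTP-tdTom. Members were every gene symbol starting with KIF or CENP plus 16 further kinetochore, checkpoint and mitotic kinase genes, each with a RefSeq mRNA name. The rule uses symbols only and no measured value beyond the choice of row, but it was set with earlier results of these data known. Of 18984 gene symbols with such a name, 77 were members. A mean FPKM of at least 1 over both groups was reached by 64 of the 77. FPKM relates the fragments of a transcript to its length and to the library size, so that levels of different genes can be set side by side.

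PC-3 is an established prostate cancer cell line. All cells carried the Tet-On transactivator rtTA2 and a second retrovirus that encoded either tdTom, a red fluorescent protein, or TTP-tdTom, and were sorted for tdTom after infection. After expansion in culture both groups received 300 ng/ml Dox for 4 hours before RNA was taken. RNA-Seq was performed on 3 tdTom and 3 TTP-tdTom samples. The deposited values hold 1 FPKM value per group and locus. They hold no value per sample, so that no spread between replicates is given here. The authors' own test results in the table were not used, and a difference between groups has no replicate check here. The depth reached and the fragments behind each value are unknown.

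Kinesins are motor proteins that walk along microtubules or take them apart at their ends. In dividing cells they build the spindle, move chromosomes and close the cleavage furrow, and in all cells other family members haul vesicles and organelles. The centromere is marked by the histone variant CENP-A, on which the constitutive centromere proteins assemble, and the NDC80 complex joins this base to spindle microtubules. Unattached kinetochores recruit MAD2, BUB1, BUBR1 and BUB3, which hold back anaphase. TTP, encoded by ZFP36, binds AU-rich elements in the 3′UTR of mRNAs and promotes their decay.

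The cells showed both keratins and the mesenchymal filament vimentin. VIM was at an FPKM of 1159 in tdTom and 899 in TTP-tdTom. KRT18 was at an FPKM of 98.2 in tdTom and 91.5 in TTP-tdTom, KRT8 at 20.9 and 19.1, KRT19 at 60.2 and 67.1 and EPCAM at 15.1 and 16.8. PTPRC and PECAM1, which mark leukocytes and endothelium, were below 1 in both groups, and CDH1 was low, at 0.119 and 0.390. Of the fibroblast markers, COL1A1 was at 4.34 and 4.56, and COL1A2 was listed at 0 in tdTom and at 1.38 in TTP-tdTom. ZFP36 itself was at 5.56 in tdTom and 5.54 in the group labelled TTP-tdTom, so that its locus did not show the transgene. Across 11616 genes with a ratio, the median log2 ratio of TTP-tdTom over tdTom was -0.24. This shift of all genes is the reference for the ratios below.

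Most members were lower in TTP-tdTom, by small amounts. Of the 64 members, 58 (90.6%) had a lower FPKM in TTP-tdTom, against 80.8% of all genes, but 38 lay below the all-gene median. After both groups were rescaled to the same FPKM sum, 41 members were lower. On that scale the all-gene median was -0.02, and the share of all genes that were lower is not given here. The median log2 ratio was -0.36, with the middle of the list, from the 25th to the 75th percentile, between -0.54 and -0.18. For all genes these percentiles were -0.54 and -0.05. CENPK, KIF5B, KIF14 and MAD2L1 were at least 2-fold lower. These 4 made up 6.25% of the members, against 8.26% of all genes, so that their share lay near the background. After rescaling to the same sum the members' share was again 6.25%, while that of all genes was 3.97%, so that the order of the shares depends on the scaling. No member was 2-fold higher, against 0.775% of all genes. With a fold of 1.5, 15 members (23.4%) were lower, against 22.9% of all genes. No member was 1.5-fold higher, where 202 of all 11616 genes were, also a small share. In these bulk samples, fewer cells in the part of the cell cycle that uses a gene and less RNA per cell cannot be told apart.

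**Figure D1:**
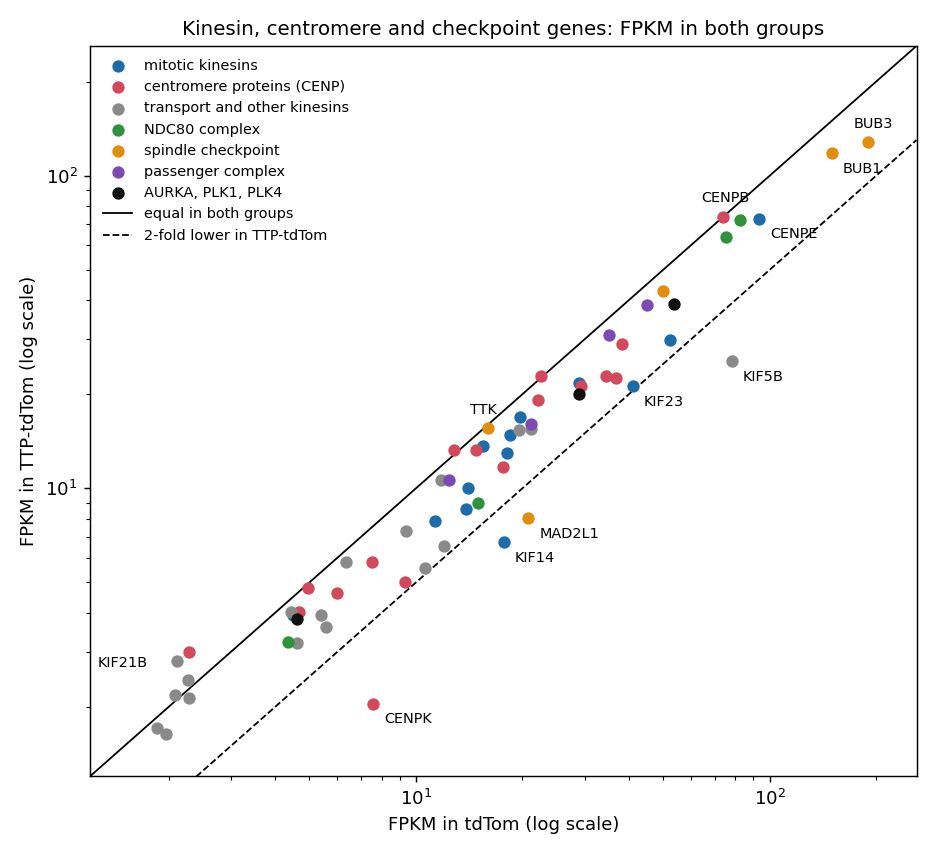
FPKM of the 64 members in tdTom (x axis) and TTP-tdTom (y axis), both on log scales, 1 point per gene and 1 value per group, coloured by role. Most points lie just under the line of equal values, and CENPK, KIF5B, KIF14 and MAD2L1 lie below the dashed line of a 2-fold lower value.

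The mitotic kinesins, which drive spindle assembly, chromosome movement and cytokinesis, were all lower in TTP-tdTom, 13 of 13 measured, against 80.8% of all genes. However, KIF22 and KIFC1 turned higher when both groups were rescaled to the same sum, and KIF2C also lay above the all-gene median. The median log2 ratio of the 13 was -0.48. KIF14, a kinesin of the midbody and of cytokinesis, had the lowest ratio. Its FPKM was 17.7 in tdTom and 6.73 in TTP-tdTom, a log2 ratio of -1.39. The locus lies on chromosome 1 of GRCh37 from 200519287 to 200590241. With the 3 rows of KIF14 summed, of which the other 2 were higher in TTP-tdTom (0.141 and 1.40, and 0.292 and 1.58), the log2 ratio was -0.90.

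Other mitotic kinesins act late in division. KIF23, the motor of the centralspindlin complex at the spindle midzone, was at 41.0 in tdTom and 21.2 in TTP-tdTom (log2 ratio -0.95). KIF20B, which takes part in completing cytokinesis, was at 52.3 and 29.9 (-0.81). KIF20A, which carries the passenger complex to the midzone, was at 14.0 and 10.0 (-0.48).

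KIF18A, KIF11, KIF15 and CENPE, which act in the metaphase spindle, had ratios from -0.69 to -0.36. KIF18A, which dampens chromosome movement at microtubule plus ends, was at 13.9 in tdTom and 8.62 in TTP-tdTom (-0.69). KIF11, the motor that pushes spindle poles apart, was at 29 and 21.7 (-0.42), close to KIF15, which can take its place, at 18.1 and 13 (-0.48). CENPE, a plus-end directed kinesin that brings chromosomes to the equator, was the mitotic kinesin with the highest level, at 93.3 in tdTom and 72.9 in TTP-tdTom (-0.36).

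The microtubule depolymerases differed from each other, and the chromosome arm kinesins were near the all-gene median. KIF2A was at 11.3 in tdTom and 7.88 in TTP-tdTom (-0.53), whereas its relative KIF2C, also called MCAK, was at 19.7 and 16.9 (-0.22). KIF4A, a chromokinesin, was at 18.5 and 14.8 (-0.32). KIF22, another chromokinesin, had 4.48 and 3.94 (-0.18). KIFC1, a minus-end directed motor that bundles spindle poles, had the highest ratio of the group at -0.18, with 15.5 and 13.7. KIF4B, whose sequence is nearly that of KIF4A so that reads may be split between them, was at 0.280 and 0.397.

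The other kinesins are mostly transport motors. Of 28 such symbols 18 were measured above the minimum, with a median log2 ratio of -0.30. In TTP-tdTom 15 (83.3%) were lower, near the 80.8% of all genes, or 10 after rescaling to the same sum. KIF5B, the heavy chain of kinesin-1 found in most tissues, had by far the highest level of the group. Its FPKM was 78.2 in tdTom and 25.5 in TTP-tdTom, a log2 ratio of -1.62, so that 32.6% of the tdTom value was left. Its locus lies on chromosome 10 of GRCh37 from 32297938 to 32345371. Its relative KIF5C, best known from neurons, was at 2.28 and 2.13 (-0.09), and KIF5A was below the minimum.

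The kinesin-2 motors, which serve transport in cilia and elsewhere, were not alike. KIF3A was at 12 in tdTom and 6.54 in TTP-tdTom (log2 ratio -0.88). Its partner KIF3B was at 6.33 and 5.81 (-0.12), KIF3C was at 5.57 and 3.61 (-0.62), and the associated protein KIFAP3 was at 1.97 and 1.64 (-0.26). The 2 members of the KIF21 pair differed. KIF21A was at 10.6 and 5.56 (-0.93), and KIF21B, at a low level of 2.11 and 2.80, had the highest ratio of all members, 0.41. With all rows of KIF21B summed its ratio was -0.08, so that its direction rests on the row used.

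The remaining transport kinesins lay between these. KIF1C, a motor of long-range vesicle transport, was at 11.8 in tdTom and 10.6 in TTP-tdTom (-0.15), and KIF1B was at 9.39 and 7.31 (-0.36). KIF13A was at 21.2 and 15.5 (-0.45), KIF16B at 4.62 and 3.20 (-0.53, or -0.07 with all its rows summed), KIFC3 at 5.4 and 3.94 (-0.46) and KIFC2 at 19.6 and 15.4 (-0.34). KIF7, a regulator of Hedgehog signalling in cilia, was at 4.45 and 4.02 (-0.15), and KIF13B was at 1.86 and 1.71 (-0.12, or -0.36 with all its rows summed). KIF27, a relative of KIF7 (0.10), and the centriolar kinesin KIF24 (0.07) were the other kinesins with a ratio above 0.

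The centromere proteins ranged from the lowest ratio of all members to values above 0. Of 18 CENP symbols other than CENPE, 17 were measured above the minimum, with a median log2 ratio of -0.38. In TTP-tdTom 14 of them (82.4%) were lower, near the 80.8% of all genes, or 9 after rescaling to the same sum. CENPK, a subunit of the CENP-H, -I, -K and -M module, had the lowest ratio of all members. Its FPKM was 7.58 in tdTom and 2.05 in TTP-tdTom, a log2 ratio of -1.88, which was lower than that of all but 0.310% of genes. The locus lies on chromosome 5 of GRCh37 from 64802566 to 64883376, a span that also holds PPWD1. The other subunits of its module did not share this size. CENPH was at 7.52 and 5.80 (-0.38) and CENPI at 22.2 and 19.1 (-0.22). CENPM was at 4.96 and 4.81 (-0.04, or 0.05 with all its rows summed).

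The subunits of the other modules also differed among themselves. In the CENP-L and -N module, CENPN was at 36.7 in tdTom and 22.6 in TTP-tdTom (-0.70) and CENPL at 29.3 and 21.3 (-0.46). In the CENP-O, -P and -Q module, CENPQ was at 9.31 and 5.01 (-0.90), CENPO at 14.8 and 13.3 (-0.16) and CENPP at 4.68 and 4.02 (-0.22, or -0.41 with all its rows summed). Of the histone-fold pair that contacts DNA, CENPW was at 34.5 and 22.9 (-0.59) and CENPT at 12.8 and 13.3 (0.05).

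CENPA, the histone H3 variant that defines the centromere, was at 17.6 in tdTom and 11.7 in TTP-tdTom (-0.59). The proteins that sit next to it on DNA were nearly equal in both groups. CENPB, which binds a motif in the repeats of the centromere, was at 73.9 and 73.8 (-0.0024), the highest level of this group, and CENPC1, which links CENP-A chromatin to the outer kinetochore, was at 22.6 and 22.8 (0.01). CENPF, a large protein of the outer kinetochore, was at 38.2 and 29 (-0.40), and CENPJ, a protein of centrioles, was at 6.0 and 4.61 (-0.38). CENPBD1, named for a DNA-binding domain like that of CENPB, had the highest ratio of this group, 0.39, at a level of 2.28 and 3.00.

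In the NDC80 complex, which binds microtubules at the kinetochore, all 4 subunits were lower in TTP-tdTom, against 80.8% of all genes. Only SPC24 and NUF2 lay below the all-gene median. NUF2 was at 15 in tdTom and 8.98 in TTP-tdTom (-0.74). Its direct partner NDC80 was at 82.4 and 72.2 (-0.19). SPC24 was at 4.35 and 3.23 (-0.43) and SPC25 at 75.2 and 63.8 (-0.24). The levels of NDC80 and SPC25 were thus several times those of the subunits they pair with, on the length-scaled FPKM scale.

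The checkpoint genes ranged from MAD2L1 to TTK. MAD2L1 encodes MAD2, which inhibits CDC20 and so the ubiquitin ligase that starts anaphase. Its FPKM was 20.8 in tdTom and 8.05 in TTP-tdTom, a log2 ratio of -1.37, so that 38.7% of the tdTom value was left. The locus lies on chromosome 4 of GRCh37 from 120980579 to 120988013. BUB3, the WD-repeat partner of BUB1 and BUBR1, had the highest level of all members, at 190 in tdTom and 128 in TTP-tdTom (-0.56). BUB1, a kinase at the kinetochore, was at 150 and 118 (-0.34). BUB1B, which encodes BUBR1, was at 50.1 and 42.8 (-0.23), in a row of the deposited values that also names PAK6. TTK, the kinase that starts checkpoint signalling, was at 16.0 and 15.6 (-0.03). All 5 checkpoint genes were lower in TTP-tdTom, against 80.8% of all genes. After rescaling to the same sum 4 of them were lower and TTK turned higher.

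The chromosomal passenger complex, which corrects wrong attachments and later guides cytokinesis, was near the median of all genes. INCENP, its scaffold, had the lowest ratio, -0.40, at 21.2 in tdTom and 16.1 in TTP-tdTom. BIRC5, which encodes survivin, was at 44.9 and 38.5 (-0.22), AURKB, its kinase, at 12.4 and 10.6 (-0.22) and CDCA8, which encodes borealin, at 35.2 and 30.9 (-0.19). After rescaling to the same sum only INCENP stayed lower. Of the other mitotic kinases, PLK1 was at 29 and 20.1 (-0.53), in a row that also names DCTN5. AURKA, which acts at spindle poles, was at 53.8 and 38.9 (-0.47), and PLK4, the kinase of centriole duplication, was at 4.61 and 3.82 (-0.27). These 3 kinases lay below the all-gene median.

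**Figure D2:**
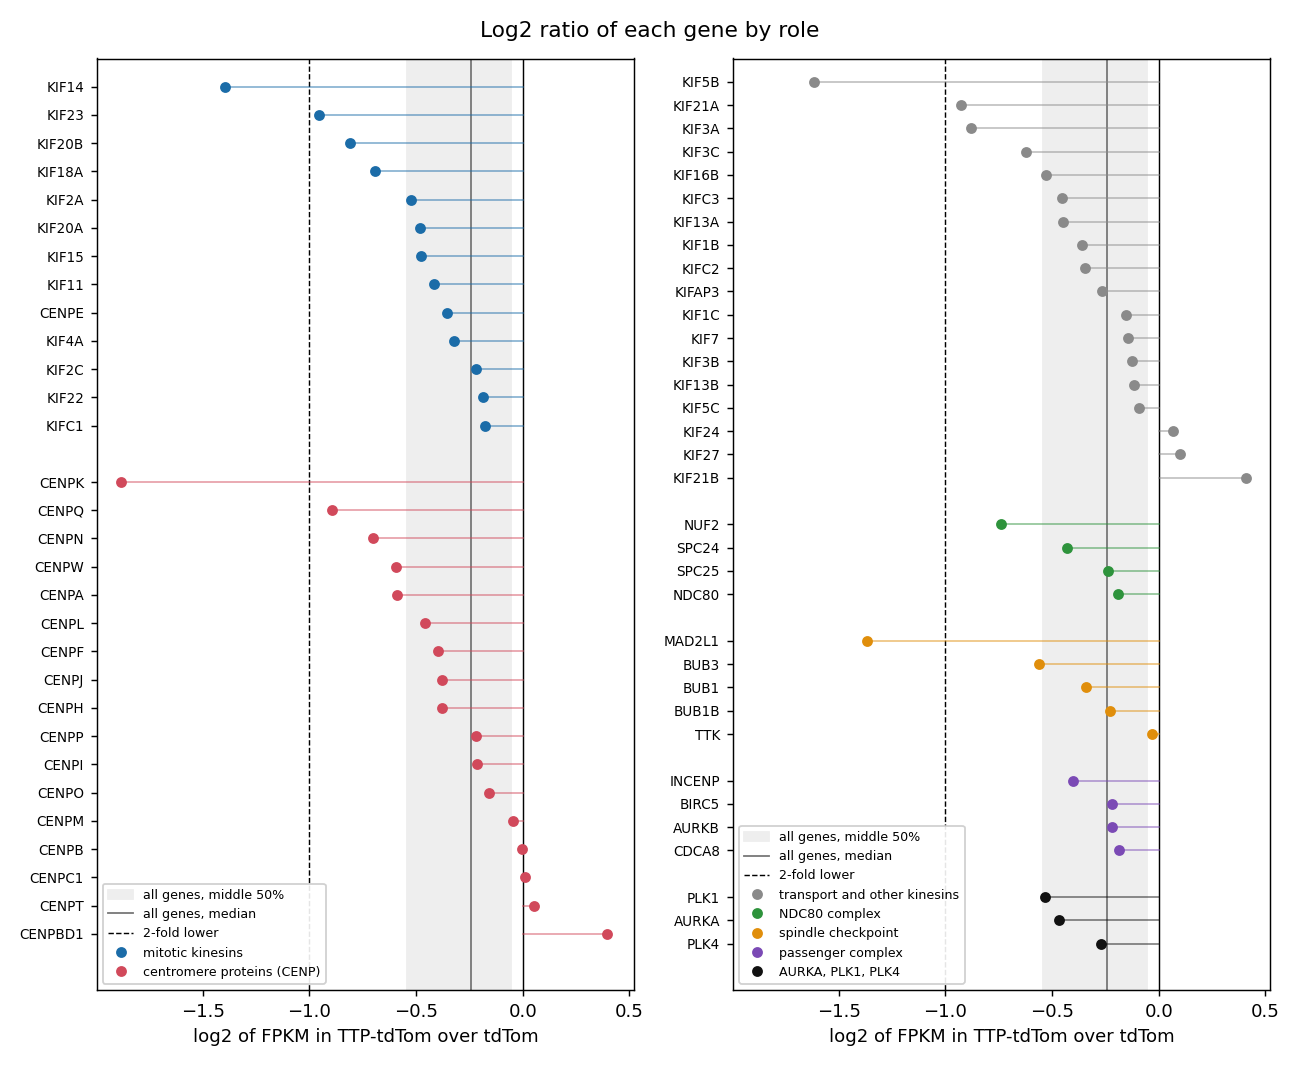
Log2 ratio of FPKM in TTP-tdTom over tdTom (x axis) for each of the 64 members, ordered within their role, 1 value per gene with no error. The grey band holds the middle of all 11616 genes, between -0.54 and -0.05, with the grey line at their median of -0.24, and 1 gene each among the mitotic kinesins, CENP genes, transport kinesins and checkpoint genes passes the dashed line of a 2-fold lower value.

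The 13 members under the minimum were KIF2B, KIF4B, CENPV, KIF5A, KIF6, KIF9, KIF12, KIF17, KIF19, KIF25, KIF26A, KIF26B and KIF1A. Their FPKM lay between 0.0923 and 1.5 in either group, and no ratio is given. Several of them are known from neurons, cilia or testis. KIF18B, a mitotic kinesin, bears no symbol in the deposited values and fell outside the rule. Of the 3 rows with a RefSeq name of KIF18B, the one with most RefSeq names was at 10.1 in tdTom and 9.56 in TTP-tdTom. Of the 64 members, 18 had a locus whose span also holds other gene symbols.

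The rest of the kinetochore and spindle machinery was taken from a list of 57 genes, of which 56 were measured above the minimum. Of these, 53 (94.6%) were lower in TTP-tdTom, against 80.8% of all genes. At least 2-fold lower were 4 (7.14%, against 8.26% of all genes) and at least 1.5-fold lower were 12 (21.4%, against 22.9%), and none was 2-fold higher, against 0.775% of all genes. After rescaling to the same sum none of the 56 was 2-fold lower, against 3.97% of all genes. Their median log2 ratio was -0.37, next to -0.36 for the members, and 38 of 56 lay below the all-gene median. The lowest were ANLN, the cytokinesis scaffold anillin, at 203 in tdTom and 88.4 in TTP-tdTom (-1.20), ZWILCH, a subunit of the RZZ complex of the checkpoint, at 18.6 and 8.23 (-1.17), and CCDC99, the older symbol of SPDL1 (spindly), which RZZ recruits, at 20.6 and 9.13 (-1.17). The highest were MAD2L1BP, which encodes a protein that removes MAD2 from its complexes (0.23), DSN1 of the MIS12 complex (0.12) and MAD1L1, the binding partner of MAD2 at kinetochores (0.10). The centromere proteins that carry other symbols in this table included MLF1IP (CENP-U), at 11.6 and 8.26, ITGB3BP (CENP-R), at 50.3 and 41.1, and STRA13 (CENP-X), at 214 and 200.

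Because TTP binds AU-rich elements, the 3′UTR of each gene was searched for the heptamer UAUUUAU, on the strand of the mRNA and with overlapping copies counted. Transcripts were those of GENCODE release 29. The heptamer was found in 18 of 63 members with a 3′UTR (28.6%), against 36.5% of 10708 genes, where the median 3′UTR was 814 bases in the members and 1408 bases in all genes. It was unevenly spread over the roles. Among the transport and other kinesins, 12 of 18 (66.7%) held it, with a median 3′UTR of 2190 bases, but 3 of 13 mitotic kinesins, 1 of 16 CENP genes and none of the NDC80 complex or passenger complex genes did. The longer nonamer UUAUUUAUU, which contains the heptamer, was found in 7 members (11.1%), against 9.53% of all genes.

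Members with and without the heptamer had like medians when pooled. Over all genes the median log2 ratio was -0.44 with the heptamer and -0.18 without it, while in the members it was -0.36 with and -0.38 without. Over all genes the median 3′UTR was 2648 bases with the heptamer and 938.5 bases without it. The ratio also moved with base composition, as given below. These medians were adjusted for neither, and a separate effect of the heptamer was not tested. The 7 members with the nonamer had a median of -0.56, and the 1020 genes with it -0.48. With 2 or more heptamers, the median was -0.42 in 8 members and -0.57 in 1676 genes. Among the mitotic kinesins, the 3 with the heptamer had a median of -0.95, the value of KIF23, and the 10 without it -0.45. The others of these 3 were KIF14 (-1.39, or -0.90 with all its rows summed) and CENPE (-0.36). CENPE, the only mitotic kinesin with the nonamer, thus lay above the median of those without the heptamer. Among the transport and other kinesins the medians with and without the heptamer were -0.26 and -0.30. The clearest contrast was between KIF5B and KIF1C, each with 5 copies. KIF5B had the lowest ratio among the kinesins (-1.62), and KIF1C, with 4 copies of the nonamer against 2 in KIF5B, had a ratio of -0.15. These windows show a site of the nonamer type in KIF5B and in KIF1C, and 1 site each of KIF14 and KIF23, in GRCh38 coordinates. In the windows of KIF5B and KIF1C a second copy of the heptamer and of the nonamer overlaps the one in capitals. The heptamer is in capitals, with 9 bases on either side:
KIF5B, chr10:32009940-32009964, minus strand: auauaaauuUAUUUAUuuauuuuuu
KIF1C, chr17:5027122-5027146, plus strand: auuuauuuuUAUUUAUuuauuuuuu
KIF14, chr1:200553231-200553255, minus strand: uaaaauaucUAUUUAUcaaaggcca
KIF23, chr15:69448235-69448259, plus strand: aaaugcugcUAUUUAUuagcugcaa

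From the heptamer on, the windows of KIF5B and KIF1C hold the same letters, yet 32.6% of the tdTom value was left for KIF5B and 90.0% for KIF1C. KIF14 held 3 copies in a 3′UTR of 1891 bases and KIF23 held 1 in 620 bases. CENPK and MAD2L1, the other members at least 2-fold lower, held none, in 3′UTRs of 709 and 4510 bases. KIF3A held 4 copies (-0.88), BUB3 held 3 (-0.56), KIF13B held 3 (-0.12) and KIF21B, the member with the highest ratio, held 1. A match is a sequence only, and no binding was measured.

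**Figure D3:**
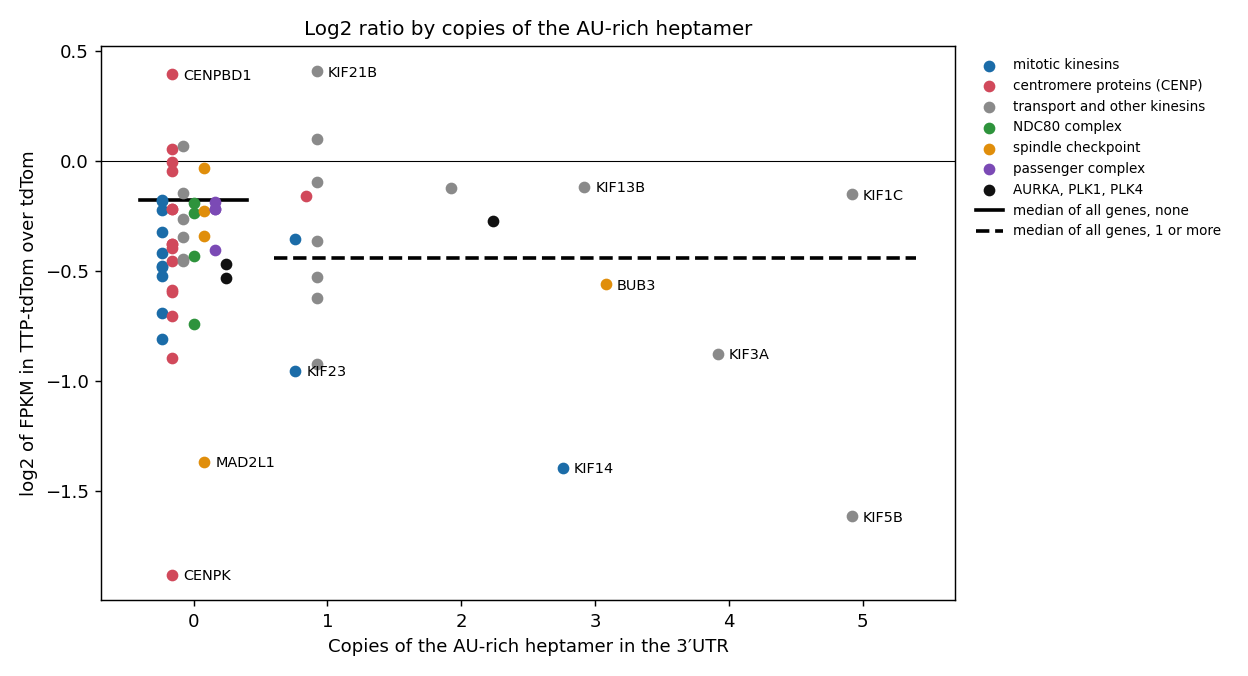
Log2 ratio of FPKM in TTP-tdTom over tdTom (y axis) against the number of heptamer copies in the 3′UTR (x axis) for 63 members, 1 point per gene, with points of different roles set slightly apart. KIF5B and KIF1C both have 5 copies at ratios of -1.62 and -0.15, while CENPK and MAD2L1 have none at -1.88 and -1.37. The black lines are the medians of all genes without (-0.18) and with (-0.44) the heptamer.

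The base composition of the transcript moved with the ratio. Across all 10708 genes, Spearman's rho between GC content and the log2 ratio was 0.49, and across the 63 members it was 0.51. These are correlations across genes from the same libraries, which are not independent replicates. Genes were divided into deciles of GC content. In the decile with the lowest, 28.6% to 38.3%, the median log2 ratio was -0.77, and in that with the highest it was -0.09. The median GC content was 44.6% in the members and 47.8% in all genes. Relative to the median of their own GC decile, the members had a median difference of -0.053, and 39 of 63 lay below it.

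On this scale CENPK and KIF5B were still at least 2-fold lower, and MAD2L1 and KIF14 no longer were. CENPK stood 1.12 lower than the median of its GC decile (difference -1.12), KIF5B had -1.04, MAD2L1 had -0.80 and KIF14 had -0.63. At higher GC content, KIF3C had -0.51 at 56.0% GC and CENPN had -0.51 at 49.1%. The AT-rich members lay on both sides of genes of like composition. NDC80, at 38.2% GC, stood 0.58 above the median of its decile, KIFAP3 had 0.50 and CENPE had 0.41, whereas CENPQ had -0.13 and KIF3A had -0.11. KIF20B, whose ratio of -0.81 was the third lowest of the mitotic kinesins, differed from its decile by -0.04.

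**Figure D4:**
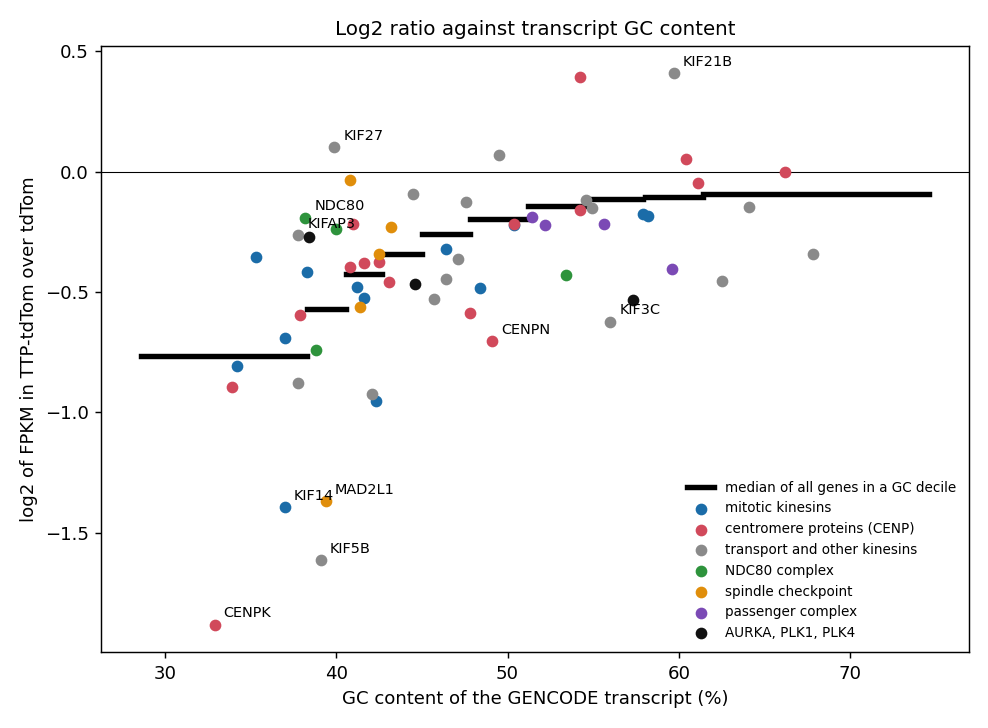
Log2 ratio of FPKM in TTP-tdTom over tdTom (y axis) against the GC content of the transcript in percent (x axis) for 63 members, 1 point per gene coloured by role. The black bars are the medians of all genes in each decile of GC content, from -0.77 to -0.09, and CENPK, KIF5B, MAD2L1 and KIF14 lie well below the bar of their decile.

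Many genes of cell division share a promoter element near the start site, the CHR, often with a CCAAT box upstream. RefSeq promoters of GRCh38.p14, from 250 bases before to 50 bases after the start, were held for 49 of the 64 members. As this is 76.6% of them, a share over all members is void, and the search is given for the 13 mitotic kinesins, each of which had a promoter, and for the NDC80 complex, where all 4 subunits had one. This restriction was chosen after the matches were seen. The hexamers TTTGAA or TTCGAA, on either strand, were found in 9 of the 13 (69.2%), against 16.6% of 27305 promoters in the table. CCAAT on either strand was found in 9 (69.2%), against 35.7%, and both in 8 (61.5%), against 6.58%. In the NDC80 complex, 3 of 4 held a hexamer, 2 held CCAAT and 1 held both. In the other roles promoters were held for some genes only, so that counts are given without a share. Of the genes with a promoter, a hexamer was held by 5 of 11 CENP genes, 3 of 3 checkpoint genes and 2 of 3 passenger complex genes. It was also held by 2 of 2 mitotic kinases and by 2 of 13 transport and other kinesins. These windows, shown for mitotic kinesins with low and middle ratios and for 1 checkpoint gene with the same element, have the hexamer in capitals, with TTCAAA where it lies on the other strand, and are read on the strand of the gene:
KIF14, chr1:200620736-200620759, minus strand: gggcgcccaTTCAAAttgcggcct
KIF23, chr15:69414285-69414308, plus strand: attggcccgTTTGAAatgcgccag
KIF18A, chr11:28108152-28108175, minus strand: tggcttgggTTTGAAtattgtggt
KIF4A, chrX:70290061-70290084, plus strand: cgggacggaTTTGAAacttggcgg
BUB1B, chr15:40161037-40161060, plus strand: accgttaaaTTTGAAacttggcgg

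From the first base of the hexamer on, the windows of KIF4A and BUB1B were identical over 15 bases. Their ratios were -0.32 and -0.23, near the all-gene median, while the 9 mitotic kinesins with the hexamer ranged from -1.39 in KIF14 to -0.18 in KIFC1. CENPE, KIF2A, KIF2C and KIF20A, the 4 mitotic kinesins whose windows lacked these letters, had ratios from -0.53 to -0.22. A match describes the sequence in this window only, and no factor binding was measured.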

How the data were processed

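The authors sequenced RNA of 3 tdTom and 3 TTP-tdTom samples of PC-3 cells. Strand-specific libraries from 100 ng RNA were sequenced as paired-end reads of 75 bases, aligned with TopHat2 2.0.13 to Hs37D5 (GRCh37 with decoy sequence) and assembled and compared with Cufflinks 2.2.1, according to the labels and methods. The deposited FPKM values, 1 per group and locus, were made by the authors from the 3 samples of a group. The table also holds the authors' log2 fold changes, test statistics, p-values, q-values and calls, which were not used. Depth per sample is not given by FPKM.

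Rows with a RefSeq NM_ name were kept, and each symbol was represented by the row with most RefSeq names, then the highest summed FPKM. Ratios are plain ratios of the authors' group FPKM, TTP-tdTom over tdTom, with no pseudocount, for symbols with a mean FPKM of at least 1. Of 11727 such symbols, 111 were listed at 0 in a group and have no ratio. Called means at least 2-fold, or 1.5-fold where said. As the table holds 1 value per group, replicate fits named in the design could not be run and no test was made. Within each role the lowest and highest ratio and the highest level are always named. The members and lists were chosen with earlier results of these data known.

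For sequence features, symbols were matched by name to the protein-coding transcript of GENCODE release 29 with the longest 3′UTR (GRCh38), found for 92.2% of genes with a ratio. Promoters are those of RefSeq on GRCh38.p14. No coordinates were moved between builds. The functions were tested on simulated data. Python 3.11.15, pandas 2.3.3, numpy 2.4.6 and matplotlib were used. Alternatives were pseudocounts, filters, scaling, the row used per symbol, fold thresholds and, chosen after seeing the data, subtraction of the GC decile's median.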

Additional observations from a re-analysis of the deposited data

How the results depend on the processing

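The count of members at least 2-fold lower was between 3 and 5 under both pseudocounts, every filter, both scalings and every choice of row. The members' share stayed at 6.25% under the same FPKM sum and under centring, while that of all genes went from 8.26% to 3.97% and 3.68%, so that the members moved from below to above it. The count of members at least 2-fold lower became 15 with a fold of 1.5 (23.4%, against 22.9% of all genes). With a fold of 4 it was 0, as the lowest member ratio was -1.88, and the share of all genes is not given here. After subtraction of the median of the GC decile, an alternative chosen after seeing the data, it was 2 (CENPK and KIF5B). This was 3.17% of members against 1.72% of all genes. The count at least 2-fold higher was 0 in each of these except without a filter on mean FPKM. There it was 2 of 77 members, among genes below the minimum, against 6.55% of all genes. The number of lower members was 58 (90.6%, against 80.8% of all genes). With a mean FPKM of at least 10, which left 39 members, it was 37 (94.9%, against 89.1%). It was 38 after centring on the all-gene median. The median log2 ratio of -0.36 became -0.14 with the same FPKM sum, -0.12 after centring and -0.053 after the subtraction by GC decile. Rescaling to the same sum added 0.22 to every log2 ratio and changed the sign of 17 members, centring changed 20. With all rows of a symbol summed, KIF14 was no longer 2-fold lower, CENPM and KIF21B changed sign, and KIF16B, KIF13B, CENPP and KIFC3 (-0.64) moved by over 0.1. The other choices of row changed no member's sign. The cause of the GC relation was not tested. The share of members with the heptamer was 28.6% in the transcripts used. No paired analysis was possible because the table holds 1 value per group, and leaving out each replicate could not be run for the same reason. With no counts or spread, the smallest difference that these samples could resolve is unknown.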
